A study of Homo sapiens with 18 samples.

Results

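This account describes what followed stable knockdown of SYK in HCC827, a human lung adenocarcinoma cell line that carries an activating deletion in exon 19 of EGFR. RNA sequencing compared HCC827 cells that expressed an shRNA directed at SYK (shSYK) with control cells (nc), in 3 libraries per group, which are 6 of the 18 libraries of the series. All 6 libraries share the EGFR deletion of the line. The study describes lentiviral delivery of the SYK shRNA and does not describe the construct of the nc cells. The other 12 libraries hold the same contrast in PC-9 (also with an EGFR deletion in exon 19) and EBC-1 (MET-amplified). A single shRNA clone is named for the knockdown, so an effect of SYK loss and an effect of that hairpin cannot be told apart. Nothing states that the 3 libraries of a group came from separate cultures, and the p-values therefore measure the spread between libraries, which may be technical. The genes described were those whose FPKM (fragments per kilobase of gene length, scaled per library) averaged at least 1 over the 6 HCC827 libraries, 11999 of the 58302 genes in the table. Each was compared as log2(FPKM + 1), a scale that understates the change of genes near 0.

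SYK is a cytoplasmic tyrosine kinase best known for relaying signals from immune receptors, where its paired SH2 domains bind phosphorylated receptor tails. It is also present in many epithelial cells, in which its loss has been linked to changes in adhesion and cell shape. HCC827 cells depend on the signal of their mutant EGFR, which runs through the RAS-ERK and PI3K pathways, and ERBB3 is a common partner of EGFR in that signal.

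The FPKM of SYK was 9.05, 8.45 and 9.74 in the nc libraries and 2.46, 3.16 and 3.36 in the shSYK libraries, without overlap between the groups. The log2 fold change was -1.34 (SE 0.10), with a limma adjusted p of 0.000197 and an exact two-sided permutation p of 0.1, the smallest that 20 assignments of 6 libraries allow. The libraries held 7920099 to 12451217 reads on genes. Of 10 markers of lung adenocarcinoma epithelium, 9 had a mean FPKM of at least 1, among them EPCAM, CDH1, KRT7, NKX2-1 and EGFR, and the exception was the surfactant gene SFTPB. Their summed FPKM was 4819 to 5211 in nc and 4166 to 4906 in shSYK libraries. Of 8 endothelial markers none reached 1 FPKM, and of 12 fibroblast and 12 leukocyte markers 1 each did, COL1A1 and CD79A. The leukocyte markers summed to 1.48 to 2.97 FPKM in nc and 3.73 to 6.04 in shSYK, with 6 of the 12 listed at 0 in all 6 libraries. Most of the shSYK sum was CD79A, at 1.38, 0.850 and 1.30 in nc and 3.53, 3.88 and 5.30 in shSYK. CD14 was lower in shSYK, at 0.807, 0.632 and 1.62 in nc and 0.159, 0.299 and 0.583 in shSYK. The part of other cells in any result was not tested.

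In the text below, a gene rose or fell where its Benjamini-Hochberg adjusted p over the 11999 genes was under 0.05. By that rule 38.0% of the genes were called, 17.2% upward (2066) and 20.7% downward (2488), and these shares are the background for every count of a gene group. The balance of directions depended on the scale, with 2482 rises and 1905 falls after the libraries were rescaled to an equal sum, and 3022 and 2171 by limma-voom on reads recovered from the FPKM. The groups did not overlap in 52.3% of the genes. Groups are therefore described by their direction, their median and their leading members, and a share of calls near the background is no result about a group. A gene that averaged under 1 FPKM in either group passed the filter only through the other group, so its direction was fixed in advance. The counts below include such genes. Among them are the rises of ANKRD1, TRAF1, SNAI2, AXL, IL32 and TNFRSF9 and the fall of TMPRSS4.

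The largest falls were in genes that epithelia use for secretion and surface defence. S100A9, a subunit of the antimicrobial calprotectin complex, stood at 349, 313 and 461 in the nc libraries and 6.07, 16.8 and 20.6 in the shSYK libraries, every shSYK library far under every nc library. Its log2 fold change was -4.73 (SE 0.38, limma adjusted p = 0.000255). LCN2, which encodes the siderophore-binding lipocalin-2 and was the most abundant of these genes, stood at 1419, 1181 and 2086 in the nc libraries and 97.5, 219.5 and 286 in the shSYK libraries. It fell by a log2 fold change of -3.04 (SE 0.38), and again the groups did not overlap. The promoters of both genes are given here because the same letters recur in the promoters of this group. They come from RefSeq (GRCh38.p14), from 250 bases before to 50 bases after the annotated start, in the direction of the gene, and the capitals mark CACCTG or its reverse complement CAGGTG, an E-box that repressors of the SNAI and ZEB families can bind. They lie at chr1:153357604-153357903 (plus strand) and chr9:128149203-128149502 (plus strand), and the match begins 92 bases before the start of S100A9, and 128 and 14 bases before that of LCN2.
S100A9 promoter: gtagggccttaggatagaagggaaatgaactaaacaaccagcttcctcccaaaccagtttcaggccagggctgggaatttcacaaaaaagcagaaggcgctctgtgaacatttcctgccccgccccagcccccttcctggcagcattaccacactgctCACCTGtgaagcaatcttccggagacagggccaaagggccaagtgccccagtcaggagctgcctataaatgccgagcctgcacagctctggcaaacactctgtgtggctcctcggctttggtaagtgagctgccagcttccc
LCN2 promoter: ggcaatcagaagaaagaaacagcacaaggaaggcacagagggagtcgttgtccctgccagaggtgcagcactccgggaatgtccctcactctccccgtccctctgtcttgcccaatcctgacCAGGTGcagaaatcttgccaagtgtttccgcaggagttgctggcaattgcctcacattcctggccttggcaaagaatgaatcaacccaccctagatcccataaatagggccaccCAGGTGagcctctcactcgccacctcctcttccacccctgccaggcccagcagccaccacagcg

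Of the 22 genes on a list of antimicrobial and secretory defence genes, 15 had enough signal to be tested and 14 of them fell, with a median log2 fold change of -1.95 against -0.0053 over all genes tested. The fold changes of the members that fell lay between -4.73 for S100A9 and -0.91 for WFDC2, and the remaining gene, the beta-defensin DEFB1, had 0.06. S100A7 (psoriasin) had 15.5, 8.58 and 12.5 FPKM in nc and not a single read in any shSYK library, which makes it at least 68.6-fold lower if the floor is set at 3 reads over the shSYK group. S100A8, the partner of S100A9 in calprotectin, had 41, 36 and 40 reads in nc and 0, 1 and 2 reads in shSYK. DEFB4A, a beta-defensin induced at inflamed epithelia, stood at 345, 252 and 540.3 in the nc libraries and 14.7, 46.5 and 67.0 in the shSYK libraries. Reads of DEFB4A and its near-identical copy DEFB4B may have been split between them, and both fell, by -3.29 and -2.85. SLPI (-1.88) and PI3 (-1.83), which inhibit neutrophil elastase, the immunoglobulin transporter PIGR (-1.69) and the complement genes C3 (-1.45) and CFB (-1.37) fell in the same way. In bulk RNA, fewer cells that express these genes and less RNA of them per cell cannot be told apart. The count was 14 with any 1 of the 6 libraries left out and with the trends of GC content and gene length removed. Genes passed the filter on their mean over 6 libraries, and 5 of the 14 (S100A7, S100A8, PI3, SAA2 and C3) averaged under 1 FPKM in shSYK, entered only through their nc level and thus had to be lower in shSYK. Of the 10 genes that averaged at least 1 FPKM in shSYK, 9 fell, with a median of -2.10.

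**Figure D1:**
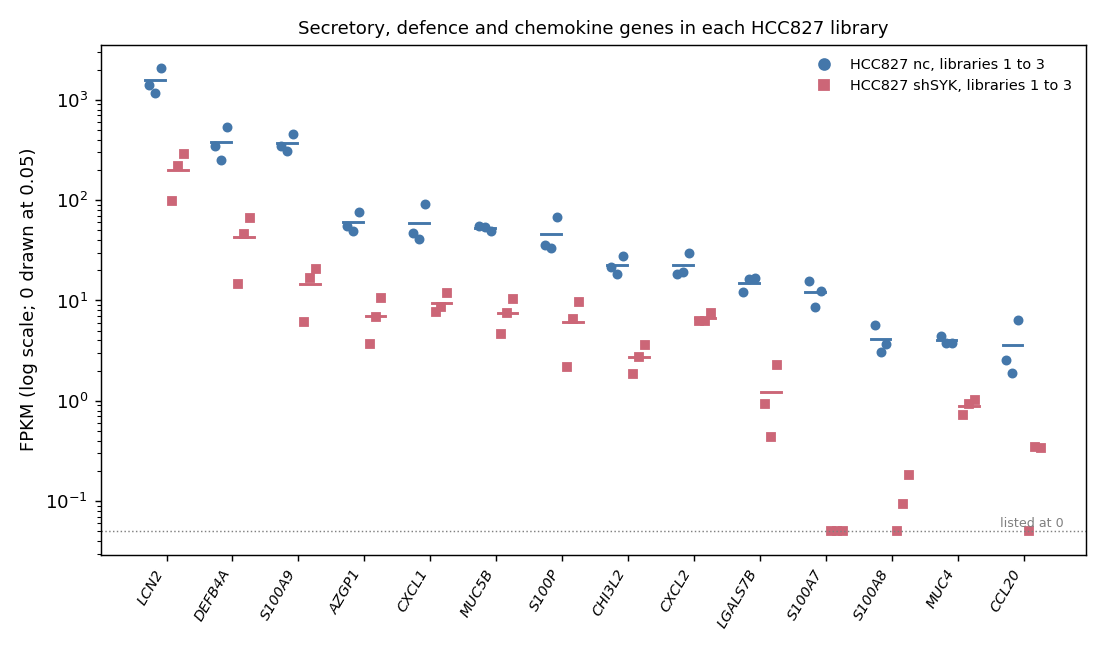
FPKM of 14 secretory, defence and chemokine genes in each of the 6 HCC827 libraries, on a log scale with 0 drawn at 0.05. Circles are nc libraries 1 to 3 and squares shSYK libraries 1 to 3, from left to right, and short lines are group means. The genes drawn are a selection of genes that fell, chosen after their values were seen. DEFB1 and the cytokines that rose are not drawn. In every gene drawn all squares lie under all circles, as in 27.6% of all genes tested, and the S100A7 squares all lie at 0.

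The fall did not extend over all S100 proteins. Of 13 S100 genes tested, 7 fell, the others being S100P (-2.80), S100A14 (-0.98), S100A16 (-0.67) and S100A13 (-0.64) beside S100A7, S100A8 and S100A9, and S100A10 (-0.0047) and S100A11 (-0.080), the partners of annexins, were among the 6 that were not called. S100A7, S100A8 and S100A9 are neighbours on chromosome 1 of hg38, between positions 153357854 and 153460701. Of 6 mucin genes tested, 5 fell. MUC5B, a gel-forming mucin of the airways, stood at 55.2, 54.0 and 49.6 in the nc libraries and 4.62, 7.46 and 10.3 in the shSYK libraries, a log2 fold change of -2.73 (SE 0.22), and the membrane mucins MUC4 (-1.40), MUC13 (-1.06) and MUC20 (-0.67) fell less. AZGP1 (-3.00), a secreted zinc-binding glycoprotein, CHI3L2 (-2.67), a chitinase-like protein without enzyme activity, and LGALS7B (-2.93), one of 2 near-identical galectin-7 genes, completed the 10 largest falls. In these genes shSYK library 1 was often the lowest and nc library 3 often the highest, and no call of a gene named here was lost without either.

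CACCTG was present in the promoters of 8 of the 8 defence genes with a promoter in RefSeq (100%), against 18.6% of all 8465 promoters of tested genes searched on both strands. It was present in 406 of the promoters of genes that fell (21.6%) and 269 of those that rose (17.8%). A match is a string of letters and no measure of binding, and the 8 genes were grouped with earlier results of these data known. The repressor SNAI2 rose by 1.22 (SE 0.22) from 1.26, 0.425 and 0.547 FPKM to 4.09, 2.86 and 2.20, and SNAI1 (0.25) was not called, except without shSYK replicate 3, at 0.39 and a limma adjusted p of 0.0401. SNAI2 averaged under 1 FPKM in nc, passed the filter only through its shSYK level and thus had to be higher there. A link between SNAI2 and the defence genes was not tested.

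Chemokines and cytokines divided by type. Of 19 genes tested, 10 fell and 3 rose, with a median of -0.50. CXCL1, which draws neutrophils through CXCR2, stood at 46.6, 40.7 and 90.7 in the nc libraries and 7.65, 8.56 and 11.9 in the shSYK libraries, and its log2 fold change was -2.47 (SE 0.29, limma adjusted p = 0.000971). CXCL2 (-1.58), CXCL3 (-1.64) and CXCL8 (-1.55), which act on the same receptor, and CCL20 (-1.80), which draws cells that carry CCR6, fell as well. CXCL1, CXCL2 and CXCL3 lie between positions 73869393 and 74099293 of chromosome 4 and are close copies, so reads could be shared between them. The 3 that rose were CSF1, the growth factor of macrophages, IL32 and IL23A. CSF1 stood at 4.83, 5.04 and 5.33 in the nc libraries and 10.5, 10.3 and 10.4 in the shSYK libraries, with little spread within either group (0.91 (SE 0.057)). IL32 was under 1 FPKM in every nc library and between 1.57 and 2.21 in the shSYK libraries.

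Most of the chemokines that fell are also known targets of NF-kB, but the list of NF-kB targets moved both ways. Of 19 targets tested, 8 fell and 6 rose. The 6 were TRAF1 (1.18), TNFAIP3 (0.67), NFKBIE (0.56), NFKB2 (0.37), NFKB1 (0.26) and RELB (0.41), subunits or feedback regulators of the pathway. TRAF1, an adaptor of TNF receptors, stood at 1.18, 0.884 and 0.518 in the nc libraries and 3.09, 3.05 and 3.42 in the shSYK libraries. NFKBIA, the inhibitor that sequesters NF-kB in the cytoplasm, fell by -0.71 (SE 0.15). The call of RELB was lost without nc replicate 1, shSYK replicate 1 or shSYK replicate 2, at limma adjusted p-values of 0.0557 to 0.0758.

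Interferon-stimulated genes leaned downward, with 13 that fell and 4 that rose of 35 tested. Without shSYK replicate 2 the counts were 7 and 1. IFITM1 (-0.77), HERC6 (-0.65) and IRF7 (-0.54) were among those that fell. Genes of antigen presentation by MHC class I went the other way, with 9 of 16 that rose and a median of 0.24, and 5 without nc replicate 1. HLA-B (0.66 (SE 0.14)) stood at 30.2, 27.7 and 40.5 in the nc libraries and 45.9, 52.4 and 57.6 in the shSYK libraries, the immunoproteasome subunit PSMB9 rose by 0.55 (SE 0.057), and NLRC5, the transactivator of class I genes, by 0.51 (SE 0.079). Reads of HLA genes may be shared between alleles and loci.

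Transcription factors that maintain epithelial identity fell as a group. Of 16 tested, 13 fell, and the median was -0.27, with 8 that fell without shSYK replicate 3 and 9 after removal of the GC and length trends. SPDEF, a factor of mucus-secreting cells, stood at 18.1, 15.3 and 18.8 in the nc libraries and 4.60, 5.11 and 8.13 in the shSYK libraries, and its log2 fold change was -1.43 (SE 0.18). ELF3, another ETS factor of differentiated epithelia, stood at 61.2, 55.2 and 72.3 in the nc libraries and 25.5, 27.5 and 29.4 in the shSYK libraries (-1.16 (SE 0.10)). The nc and shSYK libraries overlapped in neither gene. OVOL1 (-0.96), a repressor of mesenchymal genes, EHF (-0.73) and the splicing factor ESRP1 (-0.24) fell as well. KLF4 was the exception and rose by 0.33 (SE 0.055).

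Junction genes changed in composition. CLDN1, a sealing claudin, stood at 3.70, 4.44 and 4.54 in the nc libraries and 15.4, 16.7 and 15.2 in the shSYK libraries (1.69 (SE 0.079, limma adjusted p = 5.5e-05)), with no overlap between groups. In contrast CLDN3 (-0.30), CLDN4 (-0.47) and CLDN7 (-0.48) fell. TJP3, a scaffold of the tight junction, stood at 14.9, 14.1 and 20.8 in the nc libraries and 5.17, 5.42 and 5.56 in the shSYK libraries and fell by -1.44 (SE 0.13). In all, 7 of 18 tight junction genes fell and 4 rose, and 2 rose without shSYK replicate 1. Of 8 desmosome genes 5 fell, including the plaque proteins PPL (-0.48), PKP3 (-0.42) and EVPL (-0.40), and 5 also fell after removal of the GC and length trends, EVPL no longer among them (-0.19, limma adjusted p = 0.0546). Of 11 adherens junction genes 6 fell, and 3 after that removal. CTNND1 (p120-catenin), which holds E-cadherin at the membrane, stood at 63.4, 62.1 and 64.5 in the nc libraries and 36.8, 36.7 and 36.1 in the shSYK libraries and fell by -0.78 (SE 0.047).

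Target genes of YAP, a coactivator that responds to cell shape and acts through TEAD factors, rose. Of 21 tested, 12 rose and 1 fell, with a median of 0.53, and the counts were the same without the GC and length trends. ANKRD1, a muscle ankyrin repeat protein widely used as a YAP reporter, stood at 1.05, 1.12 and 0.328 in the nc libraries and 7.99, 7.08 and 5.64 in the shSYK libraries, a log2 fold change of 2.13 (SE 0.19, limma adjusted p = 0.000396). F3, which encodes tissue factor, stood at 59.8, 70.2 and 34.0 in the nc libraries and 168, 158 and 135 in the shSYK libraries and rose by 1.53 (SE 0.24). TGFB2, a ligand of the TGF-beta receptors, stood at 3.09, 3.97 and 2.72 in the nc libraries and 10.4, 8.87 and 7.22 in the shSYK libraries (1.21 (SE 0.14)). In each, the lowest shSYK library was above the highest nc library. ANKRD1 averaged under 1 FPKM in nc, passed the filter only through its shSYK level and thus had to be higher there. LATS2 (0.74) and AMOTL2 (0.53), which restrain YAP, GADD45A (0.80) and FRMD6 (1.53), an upstream regulator of the same pathway, rose as well, and IGFBP3 fell by -0.64 (SE 0.060). TEAD factors recognise GGAATG, and that word stands in capitals (or as its reverse complement CATTCC) in the promoters of ANKRD1 and TGFB2, at chr10:90921038-90921337 (minus strand) and chr1:218345086-218345385 (plus strand). The matches begin 220 and 128 bases before the start of ANKRD1 and 185 bases before that of TGFB2. Capitals mark only the word given for the group of the gene. The ANKRD1 promoter also holds CACCTG, and the LCN2 promoter also holds GGAATG and CATTCC, all in small letters.
ANKRD1 promoter: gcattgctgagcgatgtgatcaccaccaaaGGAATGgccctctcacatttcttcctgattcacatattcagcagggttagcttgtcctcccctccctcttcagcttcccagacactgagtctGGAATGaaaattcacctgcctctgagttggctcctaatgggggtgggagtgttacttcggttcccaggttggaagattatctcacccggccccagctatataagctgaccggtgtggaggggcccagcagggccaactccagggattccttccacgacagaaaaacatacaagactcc
TGFB2 promoter: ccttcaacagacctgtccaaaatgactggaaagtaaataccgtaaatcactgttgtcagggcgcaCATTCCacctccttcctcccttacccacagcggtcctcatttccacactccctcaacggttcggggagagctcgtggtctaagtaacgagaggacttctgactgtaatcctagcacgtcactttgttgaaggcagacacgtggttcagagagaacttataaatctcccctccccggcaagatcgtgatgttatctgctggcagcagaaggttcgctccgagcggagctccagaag

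The word was found in 5 of 14 promoters of YAP target genes (35.7%), against 10.8% of all promoters searched. The share was 12.5% in all genes that rose and 10.1% in all that fell, both near that of all promoters. It was 22.2% in genes that rose at least 2-fold and 17.2% in those that fell at least 2-fold.

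Genes of the cell surface protease system and of the actin cytoskeleton shared the upward direction. Of 11 genes of the plasminogen and coagulation system, 7 rose. They included PLAU (urokinase), which stood at 129.8, 129 and 106 in the nc libraries and 203, 209 and 186 in the shSYK libraries (0.71 (SE 0.091)), and PROCR (0.67), F2R (0.57) and F2RL1 (0.40), the receptors of protein C and of thrombin-type proteases. Of 38 actin and contractility genes, 14 rose and 6 fell, and 19 rose once the GC and length trends were removed. CNN3 (calponin) stood at 18.9, 23.7 and 17.3 in the nc libraries and 59.6, 56.7 and 52.0 in the shSYK libraries and rose by 1.46 (SE 0.11). FSCN1 (fascin, which bundles actin; 1.40), FLNC (filamin C; 0.97) and TPM1 (tropomyosin; 0.93) rose as well, and the nonmuscle myosin MYH14 fell by -0.88 (SE 0.066). Among genes that averaged at least 5 FPKM, the largest rises were those of VIM (2.53), the hair keratin-associated gene KRTAP2-3 (2.12) and SLAMF7 (2.02). SLAMF7, a surface receptor best known from lymphoid cells, stood at 3.26, 3.42 and 1.54 in the nc libraries and 14.5, 15.6 and 11.5 in the shSYK libraries.

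Receptors and ligands of the ErbB family moved apart. ERBB3 (-0.67 (SE 0.064)) stood at 13.9, 13.1 and 13.9 in the nc libraries and 7.62, 8.75 and 8.33 in the shSYK libraries, and ERBB2 (-0.62 (SE 0.064)) at 25.9, 24.3 and 27.2 in the nc libraries and 15.9, 15.9 and 17.3 in the shSYK libraries. Both fell, with or without the GC and length trends. EGFR, the mutant driver of this line, stood at 296, 304 and 251 in the nc libraries and 389, 368 and 328 in the shSYK libraries, and its rise of 0.35 (SE 0.10) had an adjusted p of 0.0237 that became 0.0545 without nc replicate 3, 0.0664 without shSYK replicate 1 and 0.0727 without shSYK replicate 2. Of 6 ErbB ligands tested, 4 rose, and 3 rose and 1 fell after that removal. NRG1, the ligand of ERBB3, stood at 1.92, 2.06 and 1.58 in the nc libraries and 5.98, 4.98 and 4.67 in the shSYK libraries (1.12 (SE 0.10)), HBEGF rose by 0.94 (SE 0.18) and BTC by 0.68 (SE 0.070). The fourth, EREG (0.27), lost its call without nc replicate 1 or 2 or shSYK replicate 2 or 3, at limma adjusted p-values of 0.0535 to 0.0789, and had 0.12 (limma adjusted p = 0.217) without the trends. AREG (-0.016), which encodes amphiregulin, was not called but fell by -0.20 (limma adjusted p = 0.0390) once the trends were removed.

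Of 12 receptor kinases that can bypass EGFR, 2 rose and 4 fell. MET stood at 82.5, 83.7 and 83.3 in the nc libraries and 81.3, 82.4 and 82.1 in the shSYK libraries, a log2 fold change of -0.022 (SE 0.045) that was not called. AXL rose by 0.68 (SE 0.15) from under 1 FPKM in each nc library to 2.04, 1.42 and 1.42, and ROR1 by 0.72. AXL passed the filter only through its shSYK level and thus had to be higher there. FGFR3 stood at 11.6, 11.3 and 9.20 in the nc libraries and 3.11, 2.92 and 3.05 in the shSYK libraries and fell by -1.53 (SE 0.089), and the collagen receptor DDR1 fell by -0.52. Among 11 SYK and Src family kinases, FYN rose (0.72), and SRC (-0.54), LCK (-0.81) and PTK2B (-0.82) fell beside SYK itself. The list counted 5 that fell and 3 that rose, and 1 rose without nc replicate 1.

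**Figure D2:**
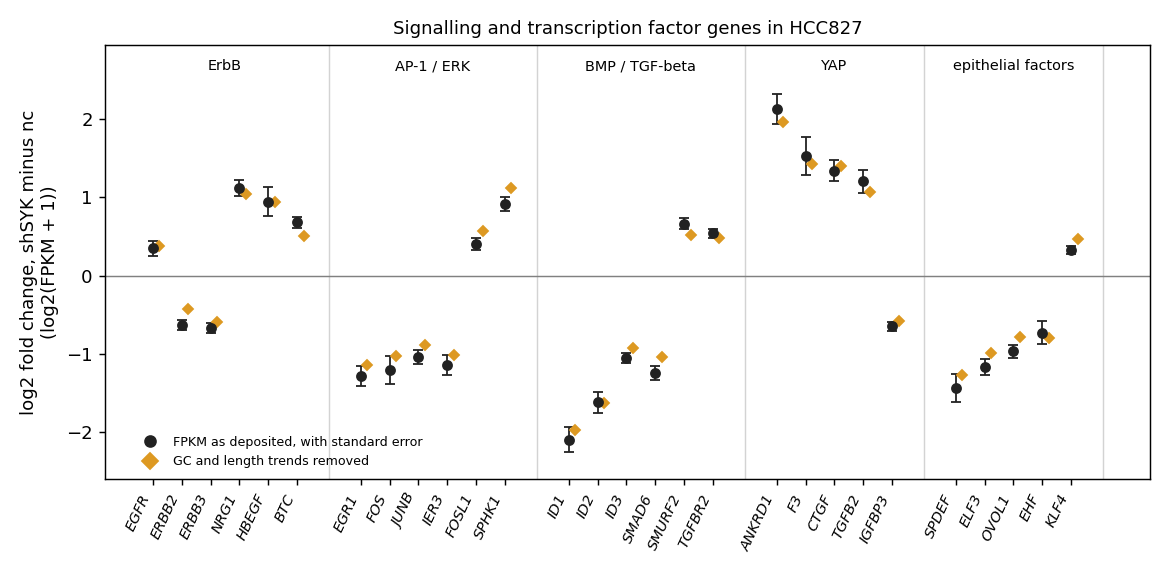
Log2 fold change of shSYK against nc on the log2(FPKM + 1) scale for genes of 5 signalling and transcription factor groups. Circles are values from the FPKM as deposited, with bars of 1 standard error (3 libraries per group), and diamonds are values after removal of the GC and length trends. The genes drawn are a selection of called members, chosen after their values were seen. Of these, NRG1, HBEGF, BTC and the YAP targets other than IGFBP3 lie above 0, and ID1, ID2, ID3, EGR1, FOS, JUNB, IER3 and the epithelial factors other than KLF4 lie under it, in both versions.

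Genes induced by ERK signalling moved both ways, with more falls than rises. Of 19 ERK feedback and output genes, 9 fell and 3 rose, with a median of -0.20, and 7 fell and 4 rose after removal of the GC and length trends, with a median of -0.089. EGR1, an immediate early transcription factor, stood at 59.2, 67.1 and 77.6 in the nc libraries and 22.6, 30.7 and 29.2 in the shSYK libraries (-1.28 (SE 0.13)). IER3 (-1.14), the ERK phosphatase DUSP6 (-0.40), the feedback inhibitor SPRY1 (-0.56) and CCND1 (-0.47), the cyclin of G1 phase, fell as well. SPHK1, sphingosine kinase, rose by 0.92 (SE 0.093) and was the largest of the 3 rises. Among 12 AP-1 subunits, FOS (-1.21 (SE 0.18)), JUNB (-1.04 (SE 0.084)), MAFF (-0.77) and BATF3 (-0.56) fell. FOSL1, which encodes FRA1, was the single subunit that rose, and it stood at 194, 172 and 169 in the nc libraries and 255, 234 and 219.7 in the shSYK libraries (0.41 (SE 0.079)). Its limma adjusted p was 0.0672 in the fit of all 18 libraries, and 2 subunits rose after removal of the GC and length trends. JUN (-0.057) was not called.

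In the TGF-beta family the ID genes and inhibitory SMAD6, which BMP signals induce, fell together. ID1, an inhibitor of helix-loop-helix factors, stood at 369, 355 and 429 in the nc libraries and 71.2, 89.4 and 111 in the shSYK libraries, and its log2 fold change was -2.09 (SE 0.15, limma adjusted p = 0.000197). ID2 (-1.62 (SE 0.13)), ID3 (-1.05 (SE 0.066)) and SMAD6 (-1.24 (SE 0.089)) followed, and BMP2 fell by -0.53. The ligand TGFB2, the receptor TGFBR2 (0.54) and the ubiquitin ligase SMURF2 (0.66) rose. The list as a whole held 9 falls and 5 rises among 25 genes tested, and TGFB1 (0.12), SMAD2 (0.18) and SMAD4 (-0.011) were not called. With the GC and length trends removed TGFB1 rose by 0.31 (limma adjusted p = 0.0129), and by limma-voom on recovered reads SMAD2 rose by 0.41 (adjusted p = 0.00260).

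The genes of DNA replication and those of mitosis moved apart. Of 40 DNA replication genes 21 fell and 2 rose, with a median of -0.24, and of 40 mitosis genes 25 rose, with a median of 0.31. All 6 subunits of the MCM2 to MCM7 helicase fell, from -0.48 for MCM2 to -0.30 for MCM4. The origin factor ORC1 stood at 25.1, 22.6 and 24.0 in the nc libraries and 15.0, 16.1 and 14.9 in the shSYK libraries (-0.61 (SE 0.060)), and CDC45 (-0.54), the ligase LIG1 (-0.49), CDT1 (-0.42) and PCNA (-0.36) fell. POLA1 (0.36) and RFC3 (0.22) rose, and RFC3 kept its call only without shSYK replicate 1 among the libraries left out. In mitosis, CKS2, a subunit that binds cyclin-dependent kinases, stood at 173, 159 and 143 in the nc libraries and 226, 248 and 239 in the shSYK libraries (0.59 (SE 0.080)). HMMR, a spindle protein, stood at 6.47, 6.38 and 5.26 in the nc libraries and 9.61, 8.79 and 9.07 in the shSYK libraries (0.53 (SE 0.082)), and KIF23 (0.47), BUB1 (0.46), NDC80 (0.44) and CCNA2 (0.41) rose.

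The mitosis genes were lower in GC content than the replication genes, with medians of 43.5% and 49.2%. After removal of the GC and length trends, 12 mitosis genes rose and 1 fell, with a median of 0.21, and 18 replication genes fell and 2 rose, with a median of -0.18. With each of the 6 libraries left out in turn, 18 to 20 mitosis genes rose and 17 to 19 replication genes fell. The promoters differed in the words they hold. TTTGAA, the cell cycle homology region bound by repressor complexes that are released in late cycle, was found in 24 of 34 mitosis promoters (70.6%), 1 of 34 replication promoters (2.94%) and 9.18% of all promoters searched. TTCCCGC, a word bound by E2F factors, was found in 17 of 34 replication promoters (50%), 3 of 34 mitosis promoters (8.82%) and 10.8% of all. These shares compare 2 lists of genes, whatever their change in shSYK. Over all called genes, TTTGAA was found in 10.8% of promoters of genes that rose and 7.19% of those that fell. For TTCCCGC these shares were 11.1% and 9.90%. The promoters of CKS2 (chr9:89310945-89311244, plus strand), HMMR (chr5:163460382-163460681, plus strand) and LIG1 (chr19:48170295-48170594, minus strand) show them in capitals. CKS2 holds the reverse complement TTCAAA 29 bases before the start, HMMR holds 2 adjacent copies that begin 28 and 22 bases before it, and the E2F word of LIG1 begins 113 bases before it. None of the 4 words whose shares are given here contains another.
CKS2 promoter: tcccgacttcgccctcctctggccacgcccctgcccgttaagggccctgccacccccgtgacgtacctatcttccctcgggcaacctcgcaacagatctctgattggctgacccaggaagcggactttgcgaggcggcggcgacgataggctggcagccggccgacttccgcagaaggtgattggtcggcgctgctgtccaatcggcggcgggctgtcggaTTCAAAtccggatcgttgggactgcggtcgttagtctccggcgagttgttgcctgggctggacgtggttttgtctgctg
HMMR promoter: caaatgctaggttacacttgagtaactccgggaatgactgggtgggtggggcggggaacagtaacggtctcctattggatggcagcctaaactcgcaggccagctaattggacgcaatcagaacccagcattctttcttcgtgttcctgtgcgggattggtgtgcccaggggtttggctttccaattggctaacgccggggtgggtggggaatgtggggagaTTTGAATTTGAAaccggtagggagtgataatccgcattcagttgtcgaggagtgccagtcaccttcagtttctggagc
LIG1 promoter: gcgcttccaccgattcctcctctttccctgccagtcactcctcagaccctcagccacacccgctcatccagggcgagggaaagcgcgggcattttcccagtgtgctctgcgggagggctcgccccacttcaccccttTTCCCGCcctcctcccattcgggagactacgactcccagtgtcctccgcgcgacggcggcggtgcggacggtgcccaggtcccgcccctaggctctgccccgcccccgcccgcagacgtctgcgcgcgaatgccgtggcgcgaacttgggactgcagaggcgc

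Replication-dependent histone genes, whose RNA peaks in S phase and mostly lacks a poly(A) tail, rose in 10 of 23 tested and fell in 1, and 5 rose without shSYK replicate 3. Their reads may be shared between near-identical copies. Among 14 D-type cyclins and CDK inhibitors, CDK6 (0.67 (SE 0.082)), CDKN2B (0.87 (SE 0.11)) and CDKN1B (0.35) rose, and CCND1 and CDKN1A (-0.52) fell.

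Metabolic groups moved in several directions. Of 27 genes of cholesterol synthesis 13 rose, and 16 rose after removal of the GC and length trends. INSIG1, a sterol-regulated brake on the pathway, stood at 33.0, 39.0 and 28.3 in the nc libraries and 68.5, 69.1 and 66.0 in the shSYK libraries (1.01 (SE 0.11)). The enzymes SQLE (0.87 (SE 0.092)), HMGCS1 (0.82 (SE 0.10)) and MSMO1 (0.76 (SE 0.093)) rose without overlap between groups. Among 17 genes of fatty acid synthesis 7 rose and 3 fell. ELOVL6, an elongase, rose by 0.78 (SE 0.058), and SREBF1, which encodes the factor that drives lipid synthesis, stood at 71.0, 74.4 and 82.3 in the nc libraries and 44.1, 40.1 and 47.2 in the shSYK libraries and fell by -0.78 (SE 0.080).

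Glycolysis leaned the other way, with 11 of 22 genes that fell and 2 that rose, and 7 that fell without nc replicate 1. The median GC content of these genes was 55.8%. After removal of the GC and length trends 9 fell and 3 rose, with medians of -0.25 before and -0.12 after. PFKFB3, which makes the activator of phosphofructokinase, stood at 66.3, 58.9 and 63.3 in the nc libraries and 27.9, 25.9 and 22.4 in the shSYK libraries (-1.28 (SE 0.087)), and PGK1 fell by -0.67 (SE 0.078). Of 28 NRF2 targets 14 fell, led by the glutathione peroxidase GPX2 (-2.21 (SE 0.21)) and the efflux pump ABCC3 (-1.24 (SE 0.076)), and 11 fell after removal of the GC and length trends. The 3 that rose did not do so without nc replicate 3.

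An amino acid exchanger fell with little spread between libraries. SLC7A5, which carries leucine and other large neutral amino acids, stood at 353, 349 and 337 in the nc libraries and 94.1, 80.1 and 82.0 in the shSYK libraries, with a log2 fold change of -2.01 (SE 0.071, limma adjusted p = 1.77e-05). SLC3A2, the heavy chain that escorts it to the membrane, stood at 119, 115 and 122 in the nc libraries and 58.4, 57.2 and 59.4 in the shSYK libraries (-1.01 (SE 0.050, limma adjusted p = 6.17e-05)). Both are also targets of ATF4, and GDF15, a stress-induced cytokine on the same list, fell by -1.98 (SE 0.24). The list of ATF4 targets as a whole moved both ways. Of 32 tested, 11 fell and 7 rose, 6 fell without shSYK replicate 2, and ATF4 itself (-0.032) and DDIT3 (-0.052) were not called. Of 25 ER chaperones 8 fell, among them HYOU1 (-0.55), CALR (-0.53) and XBP1 (-0.66). Of 21 heat shock genes 9 rose and 2 fell, HSPB8 (0.84 (SE 0.076)) and HSP90AA1 (0.54 (SE 0.070)) among the rises, and the 2 falls were not called without nc replicate 1.

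**Figure D3:**
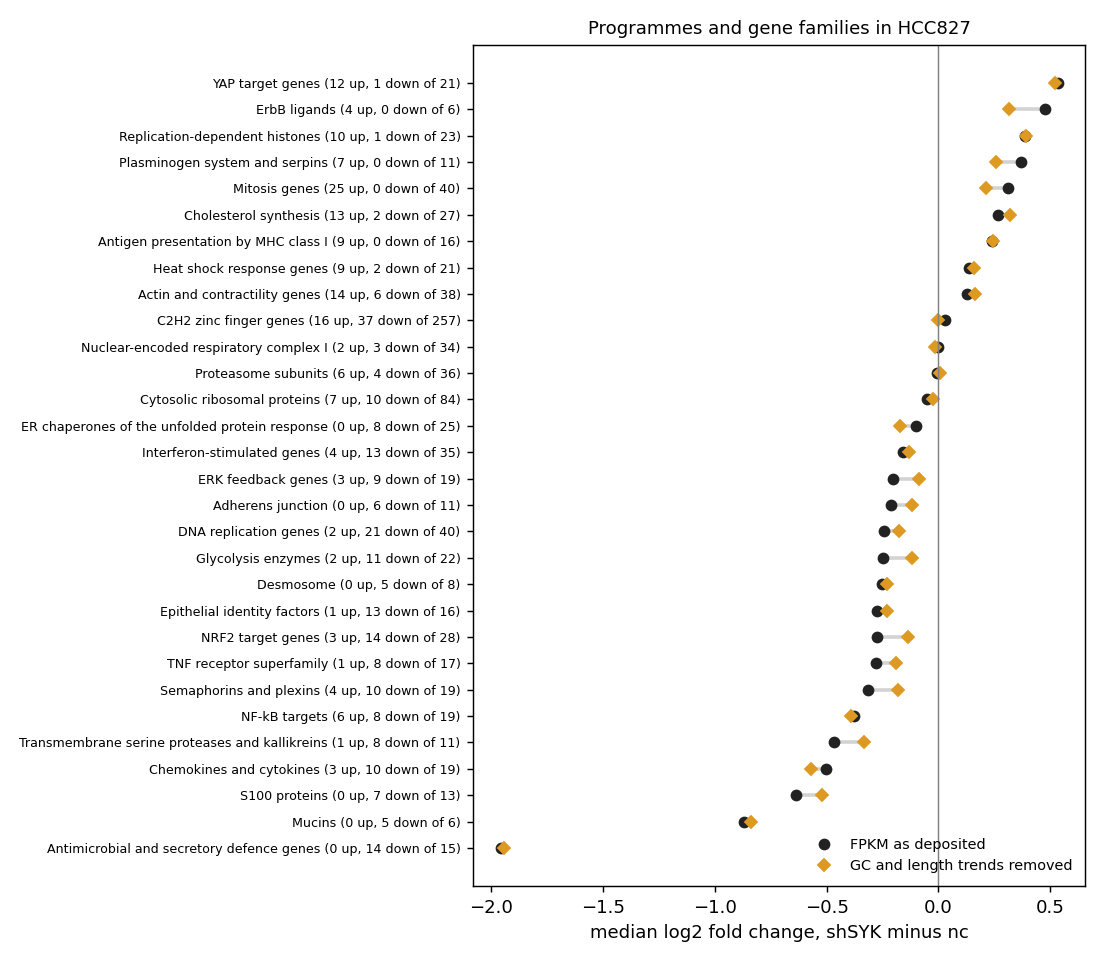
Median log2 fold change of shSYK against nc in HCC827 for 30 gene groups, with the numbers called upward and downward of those tested. Circles are medians from the FPKM as deposited and diamonds medians after removal of the GC and length trends. The defence genes have the lowest median, -1.95, and the YAP target genes the highest, 0.53.

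Large groups of genes that every cell uses stayed near the middle. The median was -0.0034 in 34 genes of respiratory complex I, -0.0062 in 36 proteasome subunits, -0.051 in 84 cytosolic ribosomal proteins and 0.030 in 257 C2H2 zinc finger genes, and after the libraries were rescaled to an equal sum the first 3 of these were 0.055, 0.053 and 0.0067. Of the ribosomal proteins 7 rose and 10 fell, shares under the background, and these counts were 3 to 12 and 1 to 16 when single libraries were left out, with the lowest without shSYK replicate 2 and nc replicate 1.

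The size of a fold change depended on the GC content of the gene. Across 11943 genes with a GC content from GENCODE, Spearman's rho with the log2 fold change was -0.43, a description across genes, which are not independent replicates and share the 6 libraries. In the lowest of 10 equal bins, with a GC content under 39.6%, the median was 0.18, with 416 genes that rose and 65 that fell. In the ninth bin, from 58.4% to 61.7%, the median was -0.20, with 73 and 512. The 3 shSYK libraries shared this slope. Deviations were taken from the nc mean, so smaller ones in the nc libraries were partly fixed in advance. In the highest bin the nc libraries deviated by -0.0098, -0.049 and 0.064, and the shSYK libraries by -0.10, -0.25 and -0.20. Libraries of the same group thus also differed with GC content, and nc libraries 2 and 3 did so in opposite directions. Gene length had no such trend (rho -0.0052). When the trends of log2 FPKM on GC content and length were removed within each library, rho was -0.0037 and 3661 genes were called (30.5%), 1766 upward and 1895 downward. Of these, 2842 had been called in the same direction before and none in the opposite direction, and 1712 of the 4554 calls were lost. A trend that comes from library preparation and one that comes from the regulation of GC-rich genes cannot be told apart here.

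**Figure D4:**
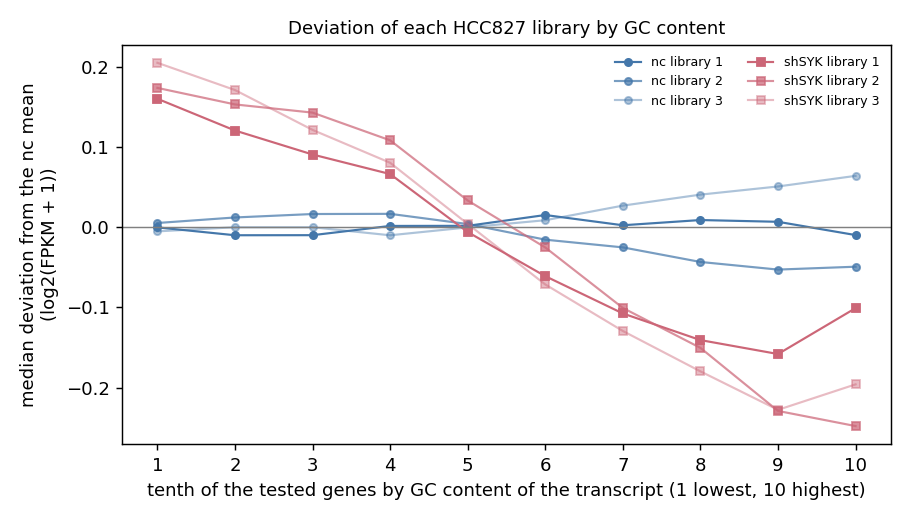
Median deviation of each HCC827 library from the nc mean (log2(FPKM + 1) scale) in 10 equal bins of the tested genes by GC content, from the lowest to the highest. Circles are nc and squares shSYK libraries. All 3 shSYK libraries are above 0 in the lowest bins and under 0 from the sixth bin on.

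The map of the changes followed the same trend on some chromosomes and not on others. Chromosome 19, which is rich in GC, had the most one-sided counts, with 40 genes that rose and 298 that fell and a median of -0.17, and the median was -0.022 after removal of the trends. Chromosome 4 leaned upward (138 rose, 50 fell, median 0.15), with 0.057 left after removal. On chromosome 14 the median was 0.098 and 0.081 after removal, with 102 that rose and 49 that fell. On chromosome X the median moved away from 0, from -0.045 to -0.072 after removal. Among windows of 50 neighbouring tested genes, one on chromosome 14 from 36657568 to 54489196 had 27 rises and 2 falls (median 0.29, and 0.16 after removal), and one on chromosome 3 from 149812708 to 170396835 had 24 and 3 (0.29 and 0.15). Coordinates are those of the table, in hg38.

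The effect of shSYK in HCC827 was also compared with that in the other lines. One library of these, PC-9 nc replicate 1, stood apart from the other PC-9 libraries, and values without it are given below. In a fit of all 18 libraries over 12672 genes, the effect of shSYK differed between HCC827 and PC-9 in 7.50% of the genes and between HCC827 and EBC-1 in 21.8%. Both differences share the HCC827 libraries. Among the 15 defence genes, 14 had a lower effect in HCC827 than in PC-9 and 15 a lower effect than in EBC-1, where the median of these genes was 0.53. In PC-9 the median was -0.28. Of the 15 genes, 3 in PC-9 and 2 in EBC-1 were under 1 FPKM in both groups and had no level to fall from. In EBC-1 nc, S100A7 (0.049 FPKM) and DEFB1 (0.33 FPKM) had no level to fall from either, and they averaged 1.39 and 2.86 in shSYK. The median nc level of the defence genes was 11.4 FPKM in HCC827, 60.3 in PC-9 and 14.2 in EBC-1.

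Of 21 YAP target genes, 8 had a higher and 3 a lower effect in HCC827 than in PC-9, and 10 and 1 than in EBC-1. Of 27 cholesterol genes 13 had a higher effect than in EBC-1 and 3 a higher effect than in PC-9. Of 40 replication genes the effect differed from that in PC-9 in 4, 2 each way, and 11 were lower than in EBC-1, where their median was 0.089. For 5 of 40 mitosis genes the effect was lower and for 1 higher than in EBC-1. Without PC-9 nc replicate 1 the effect differed from that in PC-9 in 2411 genes, 14 defence genes were lower in HCC827, 9 YAP targets were higher and 3 lower, 7 cholesterol genes were higher, and 2 replication genes were higher and 4 lower.

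**Figure D5:**
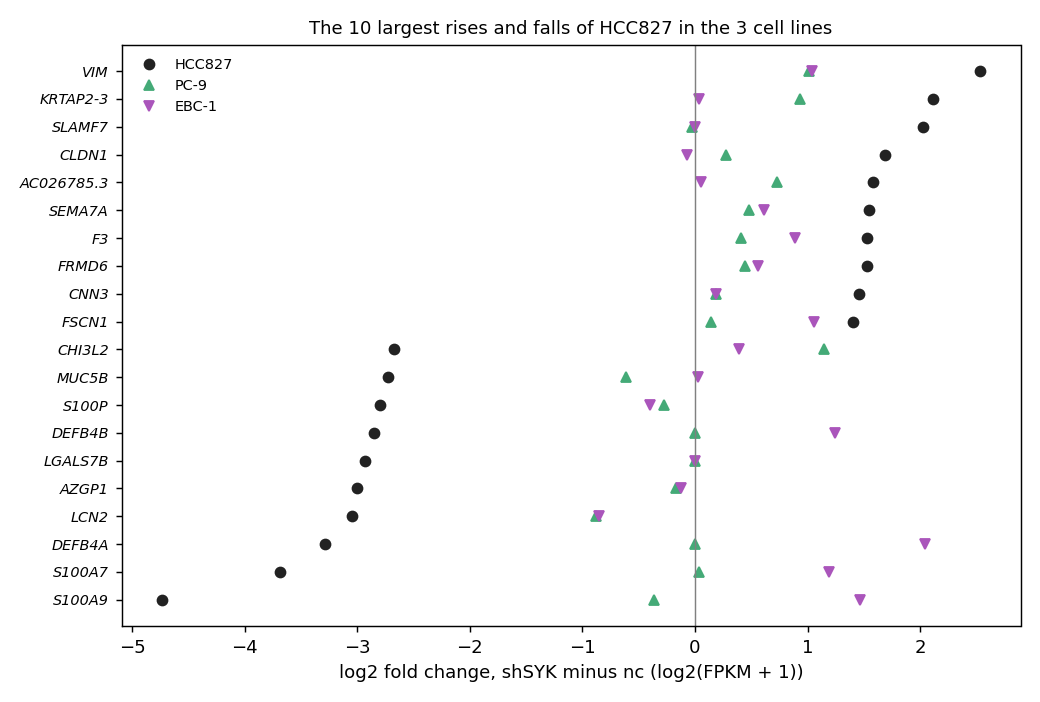
Log2 fold change of shSYK against nc on the log2(FPKM + 1) scale in HCC827 (circles), PC-9 (upward triangles) and EBC-1 (downward triangles) for the 10 largest rises and 10 largest falls of HCC827. VIM lies above 0 in all 3 lines, and every triangle among the falls lies to the right of the circle of HCC827, on either side of 0, with 4 defence genes in EBC-1 (DEFB4A, DEFB4B, S100A7 and S100A9) above 1. The genes were chosen for their size in HCC827.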

How the data were processed

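The series holds 18 RNA-seq libraries from 3 lung cancer lines. The 6 from HCC827 were analysed here, and the others served for the comparison between lines. Per the labels, the tools named for processing were CASAVA and HISAT2. The study states alignment to hg38, and the counting program, the annotation and the use of strand are not given in the sources used here. The authors deposited FPKM for 58302 Ensembl genes, with gene length, gene type and hg38 position. In each library, FPKM times gene length was checked at values above 0 and up to 2000 reads. It was a whole multiple of 1 value for 100% of these (within 0.05 reads). Reads per gene were therefore recovered for depths and for an alternative. The denominator of the FPKM is not stated. In 13 rows a septin symbol that had been turned into a date was restored from the deposited description of the gene.

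Genes averaging at least 1 FPKM were tested as log2(FPKM + 1) with limma 3.58.1 in R 4.3.3, with a variance trend and Benjamini-Hochberg adjustment, 2-sided, at an adjusted p under 0.05. The comparison between lines used a limma model with a mean for each of the 6 groups, fitted to 18 libraries. Tested on simulated data for HCC827 (11999 genes), 88% of 200 genes changed by 1 on the log2 scale were recovered, with 4 false calls. The simulated noise was independent and held no GC trend shared within a group, so the false calls do not carry over to the real data. GC content came from GENCODE v44 and was found for 11943 of the tested genes. Trends on GC content and length were removed within each library by lowess with a span of 0.3. Promoters (RefSeq, GRCh38.p14) were found for 8465 tested genes, and 11 motifs were searched on both strands. Summaries and figures were made with Python 3.11.15 (pandas 2.3.3, numpy 2.4.6, matplotlib 3.10.9 and scipy 1.17.1).

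The genes, lists and tests were chosen with earlier results of these data known. Genes are named by a rule that takes SYK, genes the study names, the 10 largest rises and 10 largest falls among called genes that averaged at least 5 FPKM and whose groups did not overlap, and up to 4 rises and 4 falls per list. Genes named beyond it were chosen after their values were seen. Results were recomputed with a pseudocount of 0.1, without the filter and with one at 5 FPKM, after rescaling to an equal sum, with quantile normalization, with limma-voom on recovered reads, after removal of the GC and length trends, without the variance trend, with the spread taken from 18 libraries, with a replicate block with and without that removal, at a 2-fold threshold and with each library left out. Read numbers cover counting error only. The shRNA sequence was not used here.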

Additional observations from a re-analysis of the deposited data

Results flagged for a closer look

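Between cell lines, the effect of shSYK on SYK itself and on the genes with the largest changes in HCC827 differed by the test of the difference in the fit of all 18 libraries (limma, Benjamini-Hochberg over 12672 genes). The values below are log2 fold changes in HCC827 minus those in the other line, on the log2(FPKM + 1) scale. SYK fell by 0.49 more in HCC827 than in EBC-1. The other genes were chosen for their size in HCC827, so a difference is no independent evidence, and a gene near 0 in the other line has no room to fall there. Of the 20 genes, 19 differed from PC-9 and 18 from EBC-1, and each difference pointed the way of the HCC827 change. Without PC-9 nc replicate 1, which stood apart, all 20 differed from PC-9.

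Among the rises, the difference from PC-9 was 1.51 for VIM, 1.18 for KRTAP2-3, 2.05 for SLAMF7, 1.41 for CLDN1, 1.06 for SEMA7A, 1.13 for F3, 1.09 for FRMD6, 1.27 for CNN3 and 1.26 for FSCN1. From EBC-1 it was 1.49 for VIM, 2.08 for KRTAP2-3, 2.02 for SLAMF7, 1.76 for CLDN1, 1.53 for the long noncoding RNA AC026785.3, 0.93 for SEMA7A, 0.97 for FRMD6 and 1.27 for CNN3. Among the falls, the difference from PC-9 was -4.37 for S100A9, -3.72 for S100A7, -3.29 for DEFB4A, -2.17 for LCN2, -2.83 for AZGP1, -2.93 for LGALS7B, -2.85 for DEFB4B, -2.52 for S100P, -2.11 for MUC5B and -3.82 for CHI3L2. From EBC-1 it was -6.20 for S100A9, -4.87 for S100A7, -5.34 for DEFB4A, -2.19 for LCN2, -2.88 for AZGP1, -2.93 for LGALS7B, -4.09 for DEFB4B, -2.40 for S100P, -2.76 for MUC5B and -3.06 for CHI3L2. The value for S100A7, which had no reads in HCC827 shSYK libraries, depends on the pseudocount.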

How the results depend on the processing

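In HCC827, 4554 genes changed, between 3365 and 3974 with each library left out in turn, and SYK stayed called with a log2 fold change of -1.41 to -1.24. Requiring at least a 2-fold change left 273 genes, 94 higher and 179 lower. When genes had to average 5 FPKM, 1346 were higher. With the replicate block and the GC and length trends removed together, 1654 were lower. The replicate numbers gave no pairing, since deviations of nc and shSYK libraries of the same number correlated by 0.0017 to 0.063 and not every library correlated best with its own number. The replicate block alone gave 4111 genes. The effect differed from that in PC-9 in 951 genes, in 1832 with the GC and length trends removed, and in 657 to 2411 with single libraries left out, the highest without PC-9 nc replicate 1. It differed from that in EBC-1 in 2758 genes, 2164 to 3795 with single libraries left out, and in 4223 with the trends removed. The cause of these moves was not tested. Of 177 called genes named in the text, 21 lost their call under at least 1 alternative, 5 of them with a library left out, and none turned direction. The calls of EREG, EVPL, RFC3, NDC80 and NKX2-1 were lost with the GC and length trends removed, and those of ABCG2, POLA1, DUSP6, CDT1 and MCM7 when the replicate block was added to that. The calls of FOSL1, PKP3, BMI1, HMMR, CLDN3, CDT1, ESRP1, MCM7, EREG, RELB and RFC3 were lost in the fit of all 18 libraries, and those of EGFR, EREG, NKX2-1, RELB, RFC3, XBP1, AMOTL2 and CXCL8 without the filter. Genes gained a call as well, TGFB1, AREG and COL1A1 with the trends removed, SMAD2 and COL1A1 by limma-voom and SNAI1 without shSYK replicate 3. The libraries held 7920099 to 12451217 reads, and how the detection of a change depends on the level of a gene was not tested.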

Other observations

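Several families of surface proteins not described above leaned downward in HCC827. Of 19 semaphorin, plexin and neuropilin genes, which guide migrating axons and cells, 10 fell and 4 rose. Their median GC content was 59.7%, and after removal of the GC and length trends 7 fell and 5 rose, with medians of -0.32 before and -0.18 after. The receptors PLXND1 (-0.86), PLXNB2 (-0.73) and NRP2 (-0.93) fell, and the secreted SEMA3A (0.66) and SEMA3C (0.76) and the membrane-anchored SEMA7A rose. The FPKM of SEMA7A was 7.35, 8.20 and 7.22 in the nc libraries and 28.5, 24.3 and 19.9 in the shSYK libraries, with no overlap between groups (1.54 (SE 0.12, limma adjusted p = 0.000229)). Of 12 ephrins and Eph receptors 5 fell, EFNA2 (-1.27) and EFNB1 (-1.07) by most, and after that removal 4 fell and 1 rose. Of 17 TNF receptor and ligand genes 8 fell (6 after the removal), among them TNFRSF1B (-0.95) and TNFSF10 (-0.88), which encodes TRAIL, and TNFRSF9 (4-1BB) was the single gene that rose, from 0.699, 0.753 and 0.689 to 3.07, 4.57 and 3.54 FPKM (1.45 (SE 0.12)). Of 11 serine proteases of the membrane and kallikrein families 8 fell (7 after the removal), and the FPKM of TMPRSS4 was 5.44, 5.67 and 7.02 in the nc libraries and 0.463, 0.851 and 1.18 in the shSYK libraries (-1.96 (SE 0.16)).

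Among 9 cytochrome P450 genes, the vitamin D hydroxylase CYP24A1 (-1.39) and the retinoic acid hydroxylase CYP26A1 (-1.15) fell, with 5 falls in all. Of 17 dual specificity phosphatases 6 rose and 2 fell, and 3 rose without shSYK replicate 2. DUSP23 (1.06 (SE 0.13)) led the rises and DUSP9 (-0.85), which acts on ERK, the falls. Among 15 listed markers of stem-like states, 9 were tested. ABCG2 (0.49), ITGA6 (0.46), BMI1 (0.46), CD24 (0.38), CD44 (0.31) and KLF4 rose, and SOX2 (-1.28) and ALDH1A3 (-0.85) fell. Of 297 lincRNA genes 61 rose (20.5%) and 28 fell (9.43%), and of 368 antisense genes 65 rose (17.7%) and 22 fell (5.98%), against 17.2% and 20.7% over all genes tested. The shares that rose were thus near the background and the shares that fell under it, a difference that was not tested. Nothing states whether reads were counted by strand, so reads of an antisense gene and of its partner cannot be told apart.

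Beside the 4 words given in capitals above, 7 other words were searched in the promoters. AP-1 (TGANTCA) was found in 4.97% of the promoters of genes that rose, 4.05% of those that fell and 4.60% of all, and the NF-kB word GGGANTTCC in 2.59%, 1.92% and 2.34%. The antioxidant response element (TGACNNNGC) was found in 14.1%, 16.3% and 15.5%, the amino acid response element (TGATGNAA) in 1.86%, 2.02% and 1.62%, and the TATA box (TATAAA) in 6.56%, 5.59% and 5.13%. The CCAAT box was found in 34.7%, 36.0% and 36.8%, and the GC box (GGGCGG) in 71.0%, 73.6% and 71.9%. The antioxidant word can overlap the AP-1 word.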
